A study of Homo sapiens with 4 samples.

Results

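Of the 16057 genes with a row in the deposited table, 8 that handle iron in the cell were followed here. RNA was sequenced from MM.1S, a cell line established from a human multiple myeloma. The 8 genes were chosen by symbol for their roles in iron uptake (TFRC, SLC11A2), storage (FTH1, FTL), release from storage (NCOA4) and sensing (ACO1, IREB2, FBXL5), and all 8 had a row. The treated group was given 350 nM of JG342, which inhibits HSP70 chaperones allosterically, and the control group was given the solvent DMSO, with collection of both after 26 h. Each treatment had 2 libraries, described in the labels as biological duplicates and numbered 1 and 2, so p-values measure the spread between these duplicates of 1 cell line at 1 dose and 1 time.

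Iron enters most cells bound to transferrin, through the transferrin receptor encoded by TFRC, and crosses the endosomal membrane through the transporter encoded by SLC11A2. Iron that is not used is held in ferritin, a hollow shell built from heavy chains (FTH1), which oxidise iron, and light chains (FTL), which help it to form a mineral core. The RNA-binding proteins IRP1 (ACO1) and IRP2 (IREB2) bind hairpins called iron-responsive elements when iron is scarce: binding before the coding part blocks translation of ferritin, and binding after it protects TFRC message from decay. FBXL5 marks IRP2 for degradation when iron is plentiful, and NCOA4 carries ferritin to lysosomes. Dividing cells such as those of a myeloma line need iron for DNA synthesis and for mitochondrial enzymes. Message levels, which were measured here, do not report translation, protein or iron itself.

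The hairpins are shown because they are the sequence feature that links the uptake and storage messages. A search of GENCODE release 29 transcripts, in the direction of the message, asked for a C, an arm of 5 bases, the loop CAGTGN and a second arm of 5 bases that pairs with the first, counting G with T as a pair. All 5 pairs were found in FTH1, FTL and TFRC, against 1.48% of 19669 protein-coding genes with a match anywhere in a transcript. In the windows below, 5′ to 3′ with T for U, the capitals mark the bulged C and the loop.
FTH1: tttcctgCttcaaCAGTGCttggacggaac
FTL: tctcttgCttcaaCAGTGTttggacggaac
TFRC window 1: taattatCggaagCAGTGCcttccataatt
TFRC window 2: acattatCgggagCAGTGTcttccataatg
TFRC window 3: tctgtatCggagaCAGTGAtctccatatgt
TFRC window 4: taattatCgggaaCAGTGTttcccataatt
SLC11A2: tagccatCagagcCAGTGTgtttctatggt

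The FTH1 window lies in the 5′ UTR, in exon 1, at chr11:61967574-61967603 on the minus strand of GRCh38. The FTL window lies in the 5′ UTR, in exon 1, at chr19:48965334-48965363 on the plus strand. These 2 windows shared 27 of 30 bases. The 4 TFRC windows lie in the 3′ UTR, in exon 19, on the minus strand, at chr3:196050979-196051008, chr3:196050575-196050604, chr3:196050510-196050539 and chr3:196050463-196050492 in message order. Any 2 of them shared between 18 and 25 of 30 bases. In SLC11A2 4 of the 5 arm positions paired, in the 3′ UTR, exon 16, at chr12:50988269-50988298 on the minus strand, and 11.2% of protein-coding genes have a match at that looser setting. ACO1 and IREB2 had 1 match each at the looser setting, and NCOA4 and FBXL5 had none. A match describes letters in a transcript and does not show that a protein bound there. The lack of a match does not show that an element is absent. EPAS1 and CDC42BPA, listed below among messages with known iron-responsive elements, had no match at either setting.

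Values are in TPM, a unit in which reads are divided by transcript length and each library is scaled to the same total, so levels of different genes can be set side by side. In DMSO the order of mean levels was FTL, FTH1, NCOA4, TFRC, IREB2, FBXL5, SLC11A2 and ACO1. FTL stood at 4583 ± 330 TPM (SD, n = 2), the 12th highest mean of all genes in the DMSO libraries, and FTH1 at 404 ± 4.42 TPM. NCOA4 and TFRC followed at 136 ± 14.7 and 93.1 ± 3.12 TPM. The DMSO values of IREB2, FBXL5 and SLC11A2 overlapped one another between 23.16 and 31.49 TPM, so their order lies within their spread, and ACO1 was below them at 16.02 ± 0.247 TPM. After JG342 the 4 highest members kept their order, and FTL had the 7th highest mean of all genes. FBXL5 and IREB2 changed places there, with overlapping values.

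**Figure D1:**
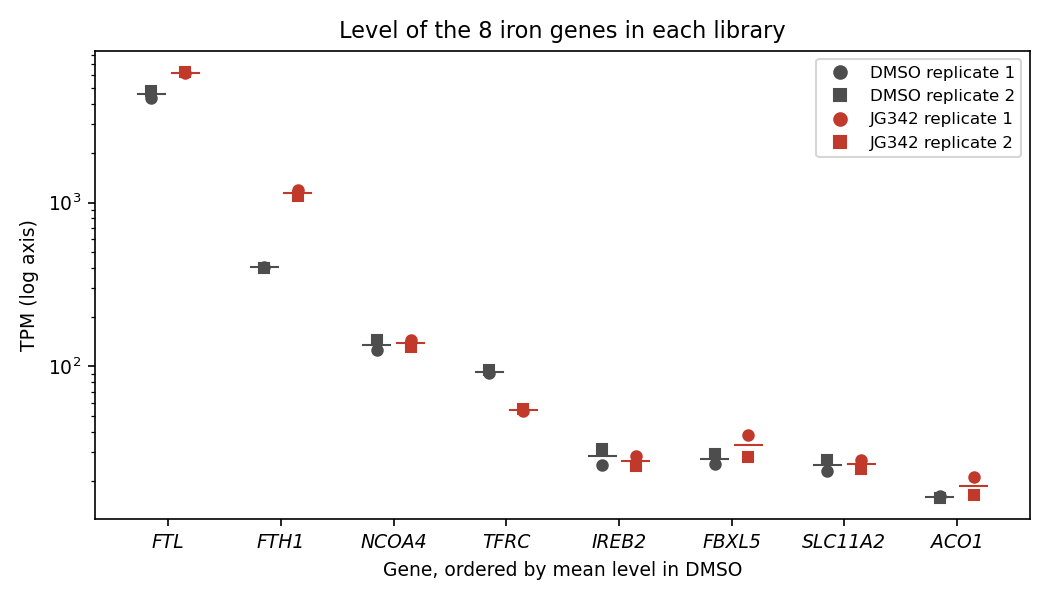
TPM (log axis) of the 8 iron genes in each of the 4 libraries, with circles for replicate 1, squares for replicate 2 and bars for the mean of each treatment. FTH1 and FTL sit higher and TFRC lower in both JG342 libraries than in both DMSO libraries.

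Differences were tested with limma on log2(TPM + 1) for the 12042 genes averaging 1 TPM or more, and called at a Benjamini-Hochberg adjusted p under 0.05. All 8 members were above that level in each library. FTH1 and FTL rose and TFRC fell, while the 5 other members did not pass, so 3 of 8 were called where 18.4% of all fitted genes were called. The members and the iron lists below were chosen with earlier results of these data known. Counts of them are therefore no independent test against that share. Higher calls made up 10.8% and lower calls 7.62% of the fitted genes. Values did not overlap between treatments for 4 of the 8, which is near the background of 62.1% and is no result about the members. Their median log2 fold change was 0.12, against 0.03 over all fitted genes.

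Of the uptake genes, the transferrin receptor message fell and the endosomal transporter message showed no difference beyond its spread. TFRC (NM_001128148) had 90.9 and 95.31 TPM in DMSO replicates 1 and 2, and 53.37 and 54.77 TPM in JG342 replicates 1 and 2. Both JG342 libraries were well below both DMSO libraries, and replicates of a treatment lay close together. The ratio of the means was 0.581, and the log2 fold change was −0.77 ± 0.10 SE (limma adjusted p 0.00173). It was −0.76 between the libraries numbered 1 and −0.79 between those numbered 2. Of the 12042 fitted genes, TFRC had the 135th largest fall. In these bulk samples, fewer cells carrying a message and less of it per cell cannot be told apart.

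SLC11A2 (NM_000617), which encodes DMT1, the transporter that moves ferrous iron out of endosomes, had 23.16 and 26.69 TPM in DMSO and 26.83 and 23.75 TPM in JG342. The treatments overlapped, and the same-numbered libraries moved in opposite directions. Its log2 fold change was 0.02 ± 0.13 SE, with a 95% interval from −0.27 to 0.32 (limma adjusted p 0.929). The table holds 1 value for the gene, so transcripts with and without the hairpin in the 3′ UTR were not separated.

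Both ferritin messages rose, the heavy chain by far more. FTH1 (NM_002032) had 407.13 and 400.88 TPM in DMSO and 1184.68 and 1102.7 TPM in JG342. The lowest JG342 library was far above the highest DMSO library. The mean was 2.83 times as high, and the log2 fold change was 1.498 ± 0.09 SE, with a 95% interval from 1.30 to 1.70 (limma adjusted p 4.23e-05). FTH1 had the 103rd largest rise of all fitted genes. Among GENCODE transcripts, 13 other genes match the FTH1 transcript at 95% identity or more over at least 20% of its length. For 10 of them the matching transcript is typed as a pseudogene, while that of the closest, FTH1P10, is typed as a processed transcript. Reads could therefore be split among copies, and the level of FTH1 is uncertain to that extent.

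FTL (NM_000146) had 4349.59 and 4815.96 TPM in DMSO and 6173.07 and 6258.18 TPM in JG342. Both JG342 libraries were above both DMSO libraries, and the DMSO libraries lay further apart than the JG342 ones. The mean was 1.36 times as high, and the log2 fold change was 0.44 ± 0.10 SE, with a 95% interval from 0.21 to 0.67 (limma adjusted p 0.0183). This call held without JG342 replicate 1 (0.45, limma adjusted p 0.0358) and without JG342 replicate 2 (0.43, 0.0342), but not without either DMSO library. Without DMSO replicate 1 the change was 0.37 (limma adjusted p 0.199) and without DMSO replicate 2 it was 0.51 (0.0994). After scaling the libraries to equal medians it was 0.37 (limma adjusted p 0.0707), and it was also 0.37 when a replicate block was added to that scaling (0.0708). One processed pseudogene, FTLP3, matched the FTL transcript at 97.7% identity over 60.1% of its length.

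**Figure D2:**
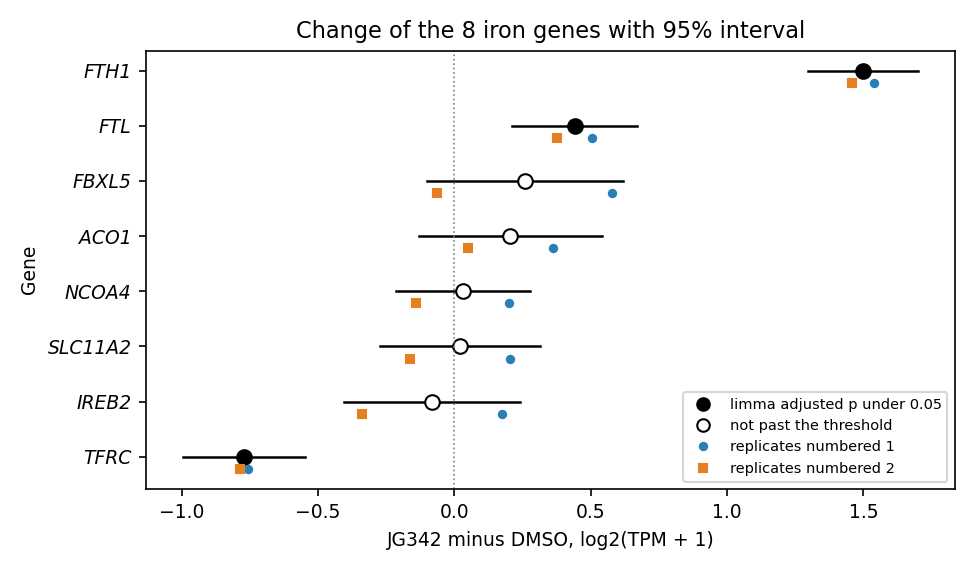
Log2 fold change of each iron gene (JG342 minus DMSO, log2(TPM + 1)) with its 95% interval from limma, filled where the adjusted p was under 0.05; small marks show the difference between libraries of the same number. FTH1 at 1.498, FTL at 0.44 and TFRC at −0.77 are filled, and the intervals of the other 5 include 0.

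The make-up of the ferritin message shifted towards the heavy chain. FTL exceeded FTH1 by 10.7 and 12.01 times in DMSO replicates 1 and 2, and by 5.21 and 5.68 times in JG342 replicates 1 and 2. FTH1 thus made up 8.56% and 7.68% of the summed ferritin TPM with DMSO, and 16.1% and 14.98% with JG342. The log2 ratio of FTL to FTH1 fell by 1.06 between the treatment means, and the values did not overlap (exact two-sided permutation test, p 0.333, which is the smallest p that 2 against 2 libraries can give). The summed ferritin message was 4757 and 5217 TPM with DMSO and 7358 and 7361 TPM with JG342, or 0.478% and 0.525% against 0.740% and 0.740% of all TPM.

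Receptor and heavy chain moved in opposite directions within each library pair. The ratio of TFRC to FTH1, a measure chosen after the values were seen, was 0.223 and 0.238 in DMSO replicates 1 and 2. It was 0.0451 and 0.0497 in JG342 replicates 1 and 2. Both JG342 libraries were below both DMSO libraries.

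**Figure D3:**
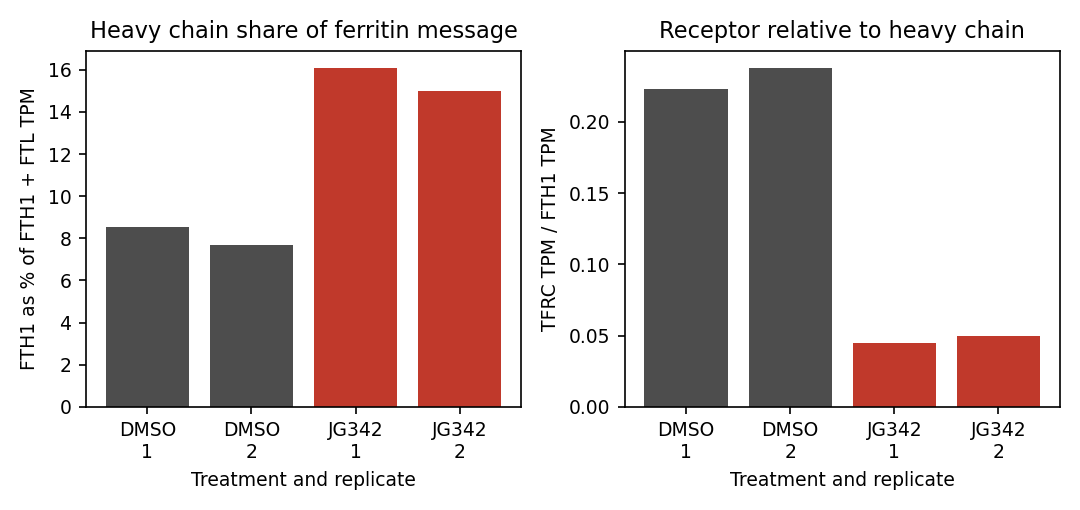
Left, FTH1 as a percent of the summed FTH1 and FTL TPM in each library; right, TFRC TPM divided by FTH1 TPM in each library; bars start at 0 and stand for single libraries. The heavy chain share is 8.56% and 7.68% with DMSO and 16.1% and 14.98% with JG342, and the receptor ratio is lower in both JG342 libraries.

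NCOA4 (NM_001145260), the receptor that delivers ferritin to lysosomes for iron release, had 125.15 and 145.96 TPM in DMSO and 144.08 and 132.34 TPM in JG342. The treatments overlapped. The log2 fold change was 0.03 ± 0.11 SE, with a 95% interval from −0.22 to 0.28 (limma adjusted p 0.871), so a change of the size seen in FTH1 lies outside the interval.

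None of the 3 sensing genes passed the test. ACO1 (NM_001278352), whose product is an aconitase when it carries an iron-sulfur cluster and IRP1 when it does not, had 16.2 and 15.85 TPM in DMSO and 21.1 and 16.43 TPM in JG342. The values did not overlap, but JG342 replicate 2 was close to DMSO, and the log2 fold change of 0.21 had a 95% interval from −0.13 to 0.54 (limma adjusted p 0.367). Leaving out 1 library at a time gave 0.03 (without JG342 replicate 1) to 0.38 (without JG342 replicate 2). IREB2 (NM_001320941) had 25.19 and 31.49 TPM in DMSO and 28.52 and 24.71 TPM in JG342, with overlapping treatments. Its log2 fold change was −0.08, with a 95% interval from −0.41 to 0.24 (limma adjusted p 0.727).

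FBXL5 (NM_001193534), the ubiquitin ligase subunit that itself binds iron, had 25.28 and 29.35 TPM in DMSO and 38.22 and 28.06 TPM in JG342. Only JG342 replicate 1 stood above the DMSO libraries. The log2 fold change was 0.26, with a 95% interval from −0.10 to 0.62 (limma adjusted p 0.292), and it was 0.58 between the libraries numbered 1 and −0.06 between those numbered 2. Without JG342 replicate 1 it was 0.04, and without JG342 replicate 2 it was 0.47. For SLC11A2, NCOA4, IREB2 and FBXL5 the libraries numbered 1 gave a positive difference and those numbered 2 a negative one. Over all fitted genes, the median level was 20.4 TPM in DMSO replicate 1 and 22.1 TPM in JG342 replicate 1. In DMSO and JG342 replicates 2 the median was 20.9 and 21.2 TPM. The share of all fitted genes with this pattern was not counted, so the pattern is no result about the members.

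**Figure D4:**
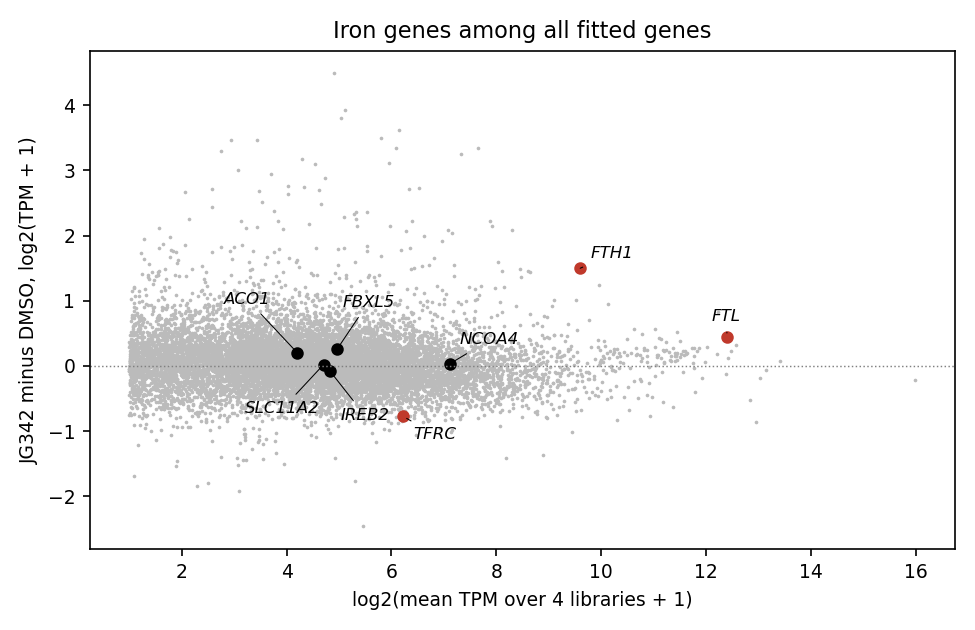
Each grey point is 1 of the 12042 fitted genes, placed by its mean level (log2 of the mean TPM + 1) and its log2 fold change (JG342 minus DMSO); iron genes past the threshold are red and the others black. FTH1 had the 103rd largest rise and TFRC the 135th largest fall.

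The 3 called members were the 3 with a fully paired hairpin. Of the 291 genes with a full match, 214 were fitted, 29 were higher and 15 lower, which is 20.6% called against 18.4% of all fitted genes, with a median log2 fold change of 0.02. Of 5 other messages listed for known iron-responsive elements, 4 were fitted and none passed. CDC14A, a phosphatase with a hairpin in some of its transcripts, had 1.47 and 1.5 TPM in DMSO and 2.74 and 2.2 TPM in JG342 (log2 fold change 0.48, limma adjusted p 0.129). The iron exporter SLC40A1, which also carries a fully paired hairpin in its 5′ UTR, was at 3.89 and 2.03 TPM in DMSO and 3.89 and 2.68 TPM in JG342.

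Beyond the 8 members, 51 other iron genes were listed by role, of which 47 had a row and 41 were fitted. Of these, 4 were higher and 1 lower, 5 of 41 called where 18.4% of all fitted genes were, and their median log2 fold change was −0.09 against 0.03 over all fitted genes. With a replicate block 13 were called, 7 higher and 6 lower, among them the same 5, where 34.9% of all fitted genes were called. With the block and median scaling 15 were called, 5 higher and 10 lower, where 33.1% of all fitted genes were called. None of the 4 export genes, 4 iron chaperone genes and 8 degradation partners passed without the block. The median log2 fold change of the iron chaperone genes was −0.10. PCBP1, BOLA2 and GLRX3 had negative log2 fold changes of −0.11, −0.09 and −0.25 (limma adjusted p 0.452, 0.529 and 0.089). GLRX3 passed with the block (limma adjusted p 0.0156) and with the block and median scaling (0.0146). The iron chaperone PCBP2, which delivers iron to ferritin, had 534.3 and 538.44 TPM in DMSO and 627.76 and 627.59 TPM in JG342 (log2 fold change 0.23, limma adjusted p 0.0992; 0.0122 with the block, and 0.188 with the block and median scaling).

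Among 7 fitted uptake and endosome genes, 1 rose and 1 fell, where 10.8% of all fitted genes were called higher and 7.62% lower, so the count is near the background. STEAP1, of the STEAP family of membrane proteins related to metalloreductases, had 2.58 and 3.67 TPM in DMSO and 20.67 and 34.58 TPM in JG342. Its log2 fold change was 2.76 with an SE of 0.24 (adjusted p from limma 0.000228), the 18th largest rise of all fitted genes. STEAP3, the endosomal ferrireductase that prepares iron for transport, had 16.95 and 16.73 TPM in DMSO and 11.3 and 11.8 TPM in JG342. It fell by 0.51 on the log2 scale (limma adjusted p 0.0274), but did not pass without DMSO replicate 1 (0.130), without DMSO replicate 2 (0.134) or without JG342 replicate 1 (0.0796). SLC39A8, a metal importer of the plasma membrane, had 140.96 and 128.4 TPM in DMSO and 116.66 and 82.9 TPM in JG342, a log2 fold change of −0.45 (limma adjusted p 0.0708; 1.04e-05 with the replicate block). It was −0.69 without JG342 replicate 1 (limma adjusted p 0.00681) and −0.20 without JG342 replicate 2 (0.315). SLC39A14, a related importer, had a log2 fold change of 0.33 (limma adjusted p 0.0765; 0.0108 with the block, and 0.0507 with the block and median scaling).

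Of 14 mitochondrial iron and heme genes, 3 rose and none fell, where 18.4% of all fitted genes were called. FECH, ferrochelatase, which inserts iron into the heme ring, had 10.45 and 11.96 TPM in DMSO and 21.68 and 19.93 TPM in JG342, and its log2 change was 0.84 with an SE of 0.14 (limma adjusted p 0.00483). PPOX, the enzyme of the step before it, had 20.48 and 22.93 TPM in DMSO and 34.55 and 43.21 TPM in JG342, for a log2 change of 0.81 with an SE of 0.14 (limma adjusted p 0.00611). BLVRB, a biliverdin reductase that acts on products of heme breakdown, had 42.09 and 40.03 TPM in DMSO and 72.78 and 73.08 TPM in JG342, which is a log2 change of 0.81 with an SE of 0.10 (limma adjusted p 0.00155). BLVRA, the other biliverdin reductase, had 82.88 and 71.1 TPM in DMSO and 62.79 and 54.09 TPM in JG342, with a log2 change of −0.39 that missed the threshold (limma adjusted p 0.0545, and 0.000595 under the block). The earlier enzymes ALAS1 and ALAD had log2 fold changes of −0.33 and −0.30 that did not pass (limma adjusted p 0.115 and 0.116; 0.0161 and 0.0522 with the block, and 0.00972 and 0.0225 with the block and median scaling). Of red-cell markers, ALAS2 was at 0.11 TPM or less in every library, and the summed level of the 5 with a row was 8.74 and 7.71 TPM in DMSO and 11.0 and 11.7 TPM in JG342, nearly all of it HBB.

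**Figure D5:**
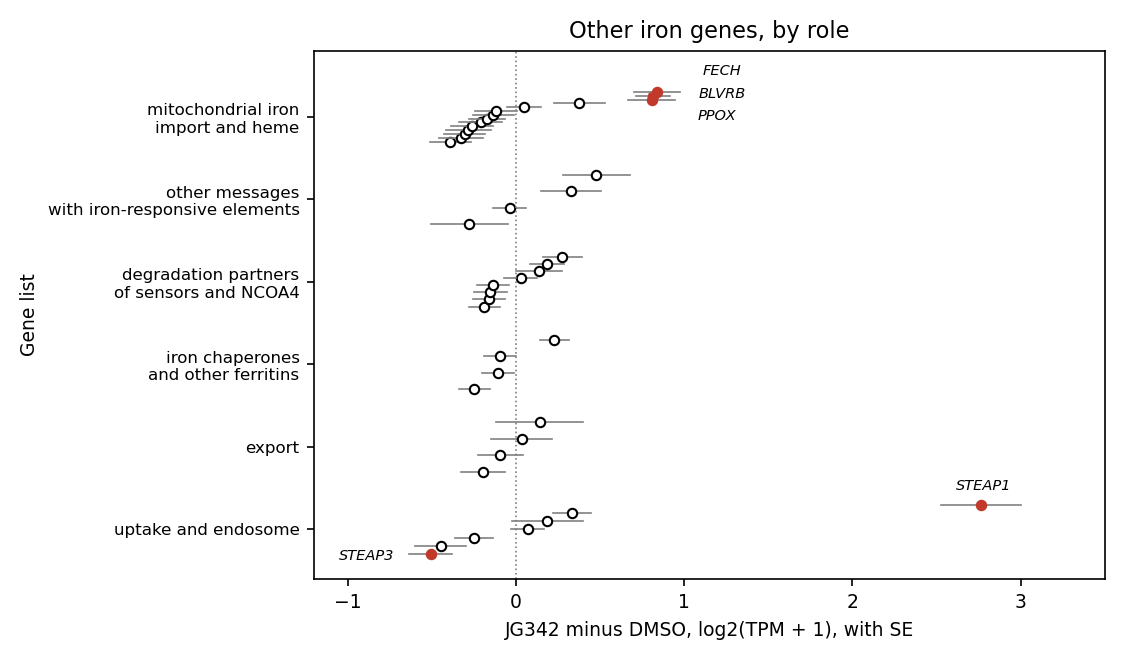
Log2 fold change (JG342 minus DMSO, log2(TPM + 1)) with its SE for the 41 other fitted iron genes, grouped by role, red where the limma adjusted p was under 0.05. STEAP1 stands furthest out at 2.76, STEAP3 is the only one called lower, and FECH, PPOX and BLVRB lie between 0.81 and 0.84.

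The genes nearest to 3 members were found among 9814 fitted genes with an average of 5 TPM or more, by the Euclidean distance of the centred log2 values over the 4 libraries. FEN1, REEP1 and TOB1 were nearest to TFRC, at distances of 0.02, 0.04 and 0.04. FEN1 had 195.55 and 202.03 TPM in DMSO and 113.92 and 116.76 TPM in JG342. CEBPG, RTL8A and PGGHG were nearest to FTH1, at distances of 0.13, 0.13 and 0.17. CEBPG had 25.52 and 24.65 TPM in DMSO and 67.56 and 68.2 TPM in JG342. ARMCX6, GPR108 and PSIP1 were nearest to FTL, at distances of 0.02, 0.02 and 0.03. With 4 libraries many genes lie close together, so nearness describes these libraries only.

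Over the whole table, the libraries summed to between 994463 and 994718 TPM, and depth is not recorded in TPM. Of the fitted genes, 1304 were higher and 917 lower after JG342, so 58.7% of calls were higher, a share that was 44.6% after scaling to equal medians, where the median change over the fitted genes was −0.03 in place of 0.03. All 8 listed plasma cell markers were present, with summed levels of 4110 to 4730 TPM, and 3 of the 8 were called, where 18.4% of all fitted genes were called. IRF4 and PRDM1 were higher (log2 fold change 0.77 and 0.36, limma adjusted p 0.000986 and 0.041) and TNFRSF17 was lower (−0.44, 0.0472). The summed levels of the T cell markers were 11.4 to 15.4 TPM, with CD3G called higher (0.80, limma adjusted p 0.0152), and those of the fibroblast markers 0.13 to 0.22 TPM. The macrophage markers summed to 37.5 to 46.4 TPM, nearly all of it LYZ, and the summed levels of these 4 lists overlapped between treatments.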

How the data were processed

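The authors deposited 1 table with 1 TPM value per gene and library, each gene named by a symbol and a RefSeq accession. The unit is not written in the header or labels; TPM was inferred from the values, since the 4 libraries sum to nearly the same total, 994463 to 994718. The submitters' processing notes name HISAT2 2.0.4, Bowtie2 2.2.5 and RSEM 1.2.12, without roles; the genome build and annotation are not given in the sources used here. Each value may combine transcripts of a gene.

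From these values, log2(TPM + 1) was computed for the 12042 genes averaging 1 TPM or more and fitted with limma 3.58.1 in R 4.3.3 (eBayes, variance trend on expression level; treatment was the single factor), two-sided, with p-values adjusted over all fitted genes. Count tests were not used, as TPM values are not counts. TPM does not record depth, so no counting intervals are given. Each gene's variance had 2 residual and 6.89 prior degrees of freedom. The fit was tested on simulated data: with 200 genes changed by 1 on the log2 scale among 11976, 100% were recovered and 2.44% of calls were false. The simulated noise was independent between libraries, with a spread set by level only. Recovery of smaller changes, such as those of FTL and TFRC, was not tested.

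The replicate numbers pair the samples, since same-numbered libraries share a prefix in the sample descriptions; their deviations from the treatment means correlated across genes at 0.275. Alternatives were another pseudocount, other filters, median scaling, quantile normalization, no trend, the replicate block and leaving out each library. The members and lists were chosen with earlier results of these data known. Named were all 8 members, the listed iron genes past the threshold, the 2 listed genes with the largest and the 2 with the smallest change, and the 3 genes nearest to TFRC, FTH1 and FTL; CDC14A, SLC40A1, PCBP2, SLC39A14, ALAS1, ALAD, BLVRA, IRF4, PRDM1, TNFRSF17 and CD3G were chosen after their values were seen. Hairpins were searched in GENCODE release 29 (GRCh38), and copies with BLAST 2.17.0.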

Additional observations from a re-analysis of the deposited data

How the results depend on the processing

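TFRC and FTH1 kept their direction and passed under all 12 alternatives, with log2 fold changes from −0.84 to −0.74 and from 1.43 to 1.55 (largest limma adjusted p 0.0259 and 0.0159). FTL stayed higher but passed in 5 of 12. It did not pass without a trend (0.44, limma adjusted p 0.059), without the filter on low values (0.44, 0.114), after median scaling (0.37), after quantile normalization (0.34, 0.0769), with the replicate block and median scaling (0.37), or without either DMSO library; leaving out 1 library at a time gave 0.37 to 0.51. The 5 other members passed under none. Their sign depended on the setting for SLC11A2 (−0.05 after median scaling, −0.03 after quantile normalization, −0.05 with the replicate block and median scaling, −0.08 to 0.12 leaving out a library), NCOA4 (−0.04 after median scaling, −0.04 with the block in addition, −0.08 to 0.14) and IREB2 (−0.24 to 0.07). ACO1 and FBXL5 stayed positive, at 0.03 to 0.38 and 0.04 to 0.47 leaving out a library. The count of all called genes was 828 without the filter, 4207 with the replicate block, 3985 with the block and median scaling, and 773 to 1905 leaving out a library. The count of called iron genes beside the members was 3 without the filter, 13 with the block, 15 with the block and median scaling, and 4 to 6 leaving out a library. The block alone, a fit in which the variance of each gene was set by its level only, changed no member's call. The change in the log2 ratio of FTL to FTH1 (JG342 minus DMSO) ran from −1.14 to −0.97 leaving out a library. PPOX and STEAP3 did not pass without the filter (limma adjusted p 0.0513 and 0.073). The cause of these differences was not tested. With 2 libraries per treatment, a fit without 1 of them assumes that the lone library varies like the others.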
